A study of Mus musculus with 6 samples.

Results

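The cytosolic ribosomal protein genes are described here in oesophageal cells of K5:Smo mice with and without ibuprofen. They were taken by symbol: every row named Rpl or Rps with a number and at most a short suffix, Rplp0 to Rplp2, and Rpsa, leaving out symbols marked as pseudogenes and the S6 kinases. The rule found 88 of the 52636 rows, 52 named for the large and 36 for the small ribosomal subunit. Of these, 77 are the standard genes of the ribosome, 46 large and 31 small. Another 6 are paralogues with their own names, and 5 are annotated as processed pseudogenes although their symbols read like those of genes. The rule itself uses symbols and no measured value, but it was set with earlier results of these data known.

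RNA was sequenced from cells sorted for high EpCAM, an epithelial surface protein, out of the thoracic oesophagus of mice. All mice were Krt5-CreERT2:R26SmoM2/EYFP, in which tamoxifen lets a Cre recombinase driven by the keratin 5 promoter switch on SmoM2. SmoM2 is a mutant Smoothened that keeps the Hedgehog pathway on. All 6 libraries were made 12 weeks after tamoxifen. The 3 untreated libraries came from mice without drug, and the 3 ibuprofen libraries from mice with 0.6 g per l of ibuprofen, a cyclooxygenase inhibitor, in the drinking bottle. No library from mice without SmoM2 was analysed here, so the controls carry the active Smoothened too. The labels name EpCAM alone for the sort, not EYFP, so cells that had not recombined may be included. The labels give neither the age nor the number of animals, and do not say that libraries came from separate animals. The p-values below therefore measure only the spread between these libraries, which may be technical. The library names carry 1 code for the untreated and another for the ibuprofen group, so that treatment and anything else the codes stand for cannot be told apart.

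Ribosomal proteins form the ribosome together with ribosomal RNA. The small subunit reads the mRNA, and the large subunit joins amino acids and lets the new chain out through its exit tunnel. Their mRNAs are among the most abundant of a growing cell and share a terminal oligopyrimidine (TOP) start, through which the TOR kinase controls their translation. Many host small nucleolar RNAs in their introns, and the family has left many processed pseudogenes, copies of the mRNA put back into the genome.

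Values are CPM, a gene's reads scaled so that the genes of every library have the same total. The estimated depth was 6361092 to 8764066 reads assigned to genes per library, at which 3 reads come to 0.342 to 0.472 CPM. Untreated replicate 1 was the shallowest library. All 9 epithelial markers were present in every library, with Krt5 between 2690 and 3939 CPM. Their summed level was 11265 to 12631 CPM in the untreated and 9072 to 10339 CPM in the ibuprofen libraries, which do not overlap. Krt5, Krt14, Krt15, Krt13 and Krt4 made up most of this sum, and the mean of each was lower with ibuprofen. Epcam had means of 261 CPM without and 259 CPM with ibuprofen, and Trp63 of 1373 and 1323 CPM. Cdh1 had means of 602 and 634 CPM, and Sox2 of 108 and 113 CPM. The summed level of 6 fibroblast markers was 42.9 to 85.5 CPM without and 65.0 to 144 CPM with ibuprofen. Dcn was the largest part in every library. The value of 144 CPM was that of ibuprofen replicate 1. Col1a1, Col1a2 and Col3a1 were at 29.0, 15.7 and 32.2 CPM in it, and at most 6.0 CPM in any other library. The summed level of 3 endothelial markers was 11.9 to 12.8 against 13.4 to 17.2 CPM, of 6 immune markers 10.8 to 14.6 against 14.1 to 17.6 CPM, and of 4 muscle markers 8.10 to 13.3 against 6.85 to 8.99 CPM. Of the defining markers, Ptprc and Lyz2 reached at most 0.25 and 0.15 CPM, and Kdr at most 0.2 CPM. Cd68, a macrophage marker, was at 4.35 to 6.80 CPM without and 8.14 to 9.44 CPM with ibuprofen, and Pecam1, an endothelial marker, at 10.4 to 12.5 against 13.1 to 16.7 CPM, both without overlap. The endothelial sum was mostly Pecam1. Other members of these lists went both ways. Cd52 had means of 6.23 CPM without and 5.33 CPM with ibuprofen, and Cdh5 0.93 and 0.22 CPM. The means of Ptprc and Kdr were also lower with ibuprofen, and those of Cd3e, Cd79a and Lyz2 higher. In bulk libraries such as these, fewer cells of a type and less RNA per cell cannot be told apart, and the part of these markers in the results below was not tested.

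All 77 standard genes were abundant. Their mean over the 6 libraries ran from 107 CPM for Rpl27 to 1290 CPM for Rpl4, which lines the exit tunnel, with a median of 365 CPM. These extremes were picked after their values were seen. Together the 88 rows took 3.70%, 3.06% and 2.92% of all CPM in untreated replicates 1, 2 and 3, and 2.79%, 3.02% and 2.89% in ibuprofen replicates 1, 2 and 3. The group means were 3.23% ± 0.42 and 2.90% ± 0.115 (SD, n = 3). Untreated replicate 1 stood above the other 5 libraries, replicate 2 was just above the highest ibuprofen library, and replicate 3 lay among the ibuprofen ones. Without untreated replicate 1 the untreated mean was 2.99%.

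The same library stood out gene by gene. Relative to each gene's own mean on the log2(CPM + 1) scale, the median of the 77 genes was 0.31 in untreated replicate 1, 0.00 in replicate 2 and -0.08 in replicate 3. In ibuprofen replicates 1, 2 and 3 the medians were -0.14, -0.02 and -0.09. Untreated replicate 1 was the highest of the 6 libraries for 67 of these 77 genes and for 69 of the 85 members tested, against 19.7% of all tested genes. Its level over the mean of untreated replicates 2 and 3 had a median of 1.25 and ran from 0.938 for Rps26 to 2.23 for Rps21. At the ends of this order, Rpl10, Rpl23a and Rps3a1 were level in the 3 untreated libraries, whereas Rpl9, Rpl18, Rpl27, Rps28 and Rps21 were at least 1.6 times as high in the first. Across the 77 genes this ratio correlated with the GC content of the transcript (Spearman's rho 0.49, Pearson's r 0.41) and inversely with its length (rho -0.30, r -0.25), which describes genes of the same 3 libraries. Over all tested genes, the deviation of untreated replicate 1 correlated with GC content with a rho of 0.48, against -0.33 to 0.19 in the other libraries.

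**Figure D1:**
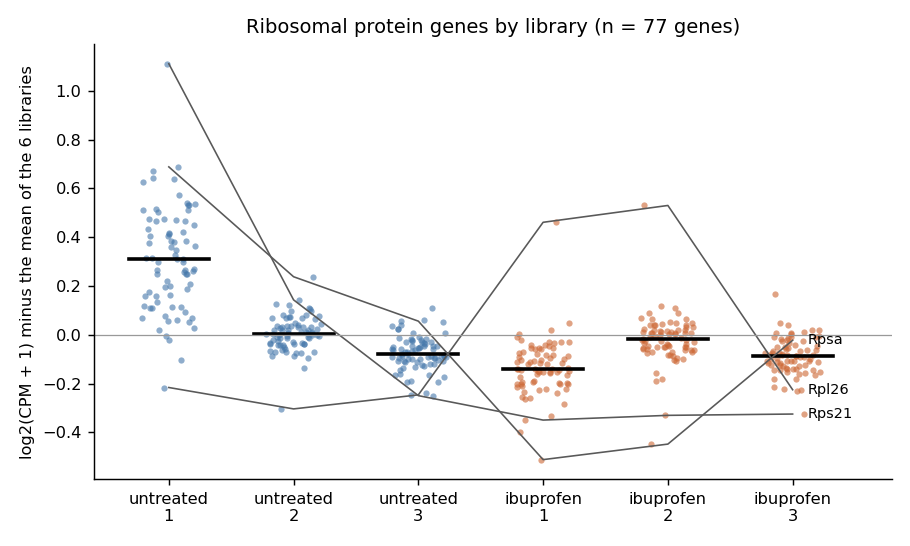
Each point is 1 of the 77 standard ribosomal protein genes in 1 library, as log2(CPM + 1) minus the gene's mean over the 6 libraries, with untreated libraries in blue, ibuprofen libraries in orange and the library median as a black bar. Lines follow Rpsa, Rps21 and Rpl26; the median is 0.31 in untreated replicate 1 and between -0.14 and 0.00 in the other 5 libraries.

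The comparison asks which of these genes differed with ibuprofen in the drinking bottle. No ribosomal protein gene passed the test in either direction. limma on log2(CPM + 1) called 0 of 85 tested members at a Benjamini-Hochberg adjusted p under 0.05, against 0.521% of all 16684 tested genes (0.222% lower and 0.3% higher with ibuprofen). Rpl3l, Rpl10l and Rpl39l were too low to test. At an unadjusted p under 0.05 there were 3 lower members, Rpsa, Rps21 and Rpl11, against 6.17% of all tested genes, and 1 higher member, Rpl26, against 11.8%. Of the tested members, the 3 ibuprofen libraries all lay below the 3 untreated ones for 6 (Rpsa, Rps21, Rpl3, Rpl11, Rpl28 and Rpl30), against 8.73% of all tested genes, and above them for 0, against 14.2%.

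The fitted fold changes leaned to the lower side by small amounts. Of the 85 members, 75 had a negative log2 fold change, ibuprofen minus untreated, against 43.7% of all tested genes. The median was -0.15, beside 0.04 over all tested genes, and the range was -0.67 for Rps21 to 0.51 for Rpl26. The median was -0.13 for 49 large subunit members and -0.17 for 36 small subunit members. Without untreated replicate 1, the median of the members was -0.04, beside 0.02 over all genes, and 63 of 85 were negative, against 46.3% of all genes. The call count was then 0 of 85, against 0.0242% of all genes, with 2 members lower at an unadjusted p under 0.05, against 4.13%, and 1 higher, against 7.59%. After a correction of each library for GC content the median of the members was -0.16, beside -0.00 over all genes, and 78 of 85 were negative, against 50.1% of all genes.

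**Figure D2:**
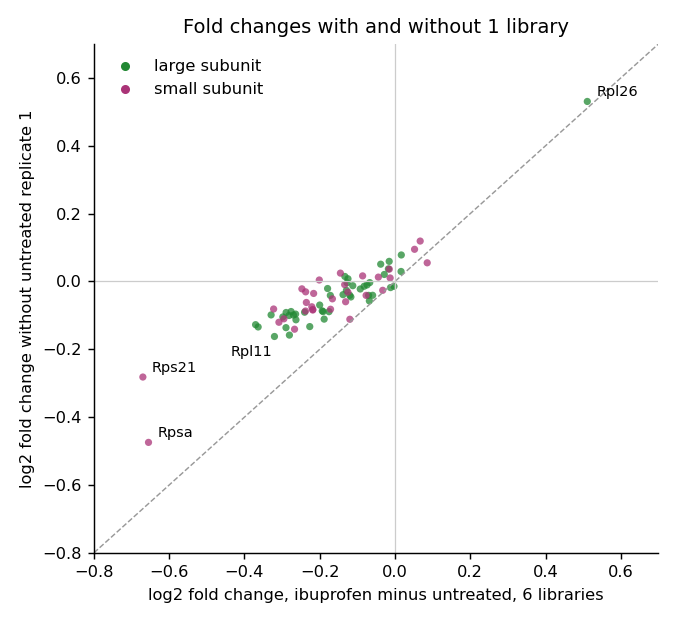
Each point is 1 of the 77 standard genes, with its log2 fold change (ibuprofen minus untreated) in all 6 libraries on the x axis and without untreated replicate 1 on the y axis; the dashed line marks equal values and colours mark the subunit. Most genes between -0.37 and 0 on the x axis lie nearer 0 on the y axis, while Rpl26 is at 0.51 and 0.53. Rpsa goes from -0.66 to -0.47 and Rps21 from -0.67 to -0.28. Rps21 is the lowest of the 77 on the x axis and Rpsa on the y axis.

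Among large subunit proteins, the stalk was measured through its 4 genes. Rplp0 is the base of the stalk, Rplp1 and Rplp2 are the acidic arms that recruit elongation factors, and Rpl12 holds the stalk to the ribosome. Rplp0, on chromosome 5, was at 1513, 1125 and 1012 CPM without and 933, 1048 and 1016 CPM with ibuprofen. Rplp1 was at 591, 407 and 377 CPM against 360, 394 and 350 CPM. Rplp2 was at 331, 261 and 225 CPM against 221, 239 and 223 CPM. In each of them untreated replicate 1 was the highest library, and the groups overlapped, since untreated replicate 3 lay below ibuprofen replicate 2. Rpl12 was at 650, 568 and 518 CPM against 472, 547 and 514 CPM, and overlapped as well. The 4 log2 fold changes ran from -0.29 to -0.18 with a median of -0.25, and their smallest adjusted p from limma was 0.34. Without untreated replicate 1 the median was -0.09.

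Rpl5 and Rpl11 travel with the 5S rRNA and, when free of the ribosome, bind the p53 regulator Mdm2. Rpl11 was at 359, 269 and 248 CPM without and 234, 227 and 230 CPM with ibuprofen. Every ibuprofen library was below every untreated one, and the 3 ibuprofen values were nearly equal. With its near-identical copies added, as described with the copies, the groups overlapped. The means were 292 ± 59.1 and 231 ± 3.45 CPM (SD, n = 3), with a log2 fold change of -0.32 ± 0.13 (SE) and an adjusted p of 0.24 from limma. Without untreated replicate 1 the change was -0.16 ± 0.09 with an adjusted p of 0.508. Rpl5 was at 518, 450 and 457 CPM against 415, 463 and 474 CPM, a change of -0.07 ± 0.10, and its groups overlapped.

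Rpl27, Rpl9 and Rpl18 had the lowest fold changes of the large subunit. Rpl27 was at 167, 114 and 88.2 CPM without and 82.7, 96.7 and 96.1 CPM with ibuprofen. Rpl9 was at 490, 336 and 275 CPM against 258, 281 and 291 CPM. Rpl18, one of the genes mutated in human Diamond-Blackfan anaemia, was at 377, 249 and 217 CPM against 204, 230 and 219 CPM. In all of these the untreated libraries alone spanned more than the ibuprofen libraries did. Their log2 fold changes of -0.37, -0.36 and -0.33 became -0.13, -0.13 and -0.10 without untreated replicate 1, and none passed the test (adjusted p of 0.326, 0.299 and 0.333 from limma).

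Rpl3, a protein next to the peptidyl transferase centre, had the fold change nearest 0 among the 6 genes whose groups did not overlap. It was at 625, 607 and 616 CPM without and 580, 599 and 584 CPM with ibuprofen. The gap between the groups, 607 against 599 CPM, was smaller than the spread within either one. Its log2 fold change was -0.07 ± 0.09 with an adjusted p of 0.724 from limma. Rpl7, an abundant large subunit protein, was at 847, 749 and 734 CPM against 721, 785 and 715 CPM, and Rpl22, which binds RNA on the outside of the subunit, at 219, 199 and 212 CPM against 190, 199 and 212 CPM. Both overlapped between groups.

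Rpl10, Rpl39 and Rps4x were the members followed on the X chromosome. Rpl10, which joins late and completes the peptidyl transferase centre, had the smallest spread of the 77 genes, with a ratio of 1.05 between its highest and lowest library. It was at 688, 698 and 711 CPM without and 679, 714 and 700 CPM with ibuprofen. The groups overlapped, and the log2 fold change was -0.00 ± 0.09. Rpl39, a small protein of the exit tunnel, was at 239, 186 and 177 CPM against 181, 191 and 176 CPM. Its change of -0.13 turned to 0.01 without untreated replicate 1. Rps4x, on the small subunit, was at 960, 901 and 882 CPM against 840, 901 and 859 CPM.

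Rpl13a, a large subunit protein that is often used as a reference gene, was at 727, 593 and 615 CPM without and 598, 642 and 637 CPM with ibuprofen. Its groups overlapped, and its fitted change of -0.04 ± 0.11 turned to 0.05 without untreated replicate 1. A readthrough gene overlaps it on the same strand, so the 2 cannot be fully told apart.

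Rpl26 was the one large subunit gene on the higher side at an unadjusted p under 0.05. It lies on chromosome 11 (chr11:68901583-68906989, plus strand, GRCm38), and in human cells its protein also binds the p53 mRNA. It was at 278, 262 and 272 CPM without and 446, 468 and 277 CPM with ibuprofen. Ibuprofen replicates 1 and 2 were high, while replicate 3 lay among the untreated libraries. The means were 271 ± 8.36 and 397 ± 105 CPM (SD, n = 3), or 1.46-fold. The log2 fold change was 0.51 ± 0.17 (SE) with an adjusted p of 0.165 from limma, and without ibuprofen replicate 3 it was 0.75 with an adjusted p of 0.0253. With its near-identical copies added in all 6 libraries, as described with the copies, it was 0.08 ± 0.10 with an adjusted p of 0.686.

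Among small subunit proteins, Rpsa had the smallest p. Its protein, also known as the laminin receptor, is needed for late steps of small subunit maturation. The gene lies on chromosome 9 (chr9:120127689-120132369, plus strand, GRCm38). It was at 1119, 819 and 721 CPM without and 486, 508 and 683 CPM with ibuprofen. The groups did not overlap, and ibuprofen replicate 3 was the nearest to the untreated libraries. The means were 886 ± 207 and 559 ± 108 CPM (SD, n = 3), 1.58-fold higher in the untreated group. The log2 fold change was -0.66 ± 0.17 with an adjusted p of 0.112 from limma. It was -0.47 ± 0.15 with an adjusted p of 0.32 without untreated replicate 1, and -0.79 with an adjusted p of 0.0463 without untreated replicate 3. With its near-identical copies added in all 6 libraries, as described with the copies, it was -0.43 ± 0.15 with an adjusted p of 0.178.

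Rps21 had the lowest fold change of all members. It was at 284, 145 and 110 CPM without and 103, 104 and 104 CPM with ibuprofen. The ibuprofen libraries were nearly equal, and the untreated ones spread 2.58-fold. The log2 fold change was -0.67 ± 0.26 with an adjusted p of 0.217 from limma, and -0.28 ± 0.12 with an adjusted p of 0.423 without untreated replicate 1.

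Rps6 is the substrate of the S6 kinases. It was at 483, 423 and 409 CPM without and 376, 422 and 400 CPM with ibuprofen, a log2 fold change of -0.13 ± 0.10, and the groups overlapped. Rps19, the gene most often mutated in human Diamond-Blackfan anaemia, was at 351, 240 and 216 CPM against 207, 243 and 220 CPM. Its change of -0.24 ± 0.16 became -0.03 without untreated replicate 1. Rps27a, which is made as a fusion with ubiquitin, was at 373, 329 and 332 CPM against 326, 338 and 337 CPM, again with overlapping groups.

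Rps3 sits where the mRNA enters the ribosome and Rps15 near the decoding site. Rps3 was at 803, 664 and 574 CPM without and 512, 583 and 589 CPM with ibuprofen, and Rps15 at 538, 454 and 439 CPM against 402, 441 and 422 CPM. Both overlapped between groups. Rps26, which contacts the mRNA just upstream of the start codon, was at 579, 595 and 641 CPM against 631, 663 and 631 CPM. It was one of 6 standard genes with a positive fold change, 0.09 ± 0.10, and untreated replicate 1 was its lowest library. None of these 3 passed the test.

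Most of the 77 genes kept close levels across the ibuprofen libraries. The ratio of the highest to the lowest ibuprofen library was under 1.2 for 74 of them, with a median of 1.1 and a highest value of 1.69 for Rpl26. In the untreated group the median ratio was 1.31 and the highest 2.58 for Rps21. Set per kilobase of transcript, the most abundant members were Rps26 (915 CPM per kb), Rps4x (913 CPM per kb) and Rps15 (899 CPM per kb), whose levels differ by less than the spread of Rps15 between libraries. The median of the standard genes was 431 CPM per kb and the lowest was Rps15a at 60.1 CPM per kb, where the annotated transcripts are unusually long and make the level too low. Across the 77 genes the log2 fold change correlated inversely with GC content (rho -0.43, r -0.32), and less so without untreated replicate 1 (rho -0.21, r -0.16).

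In CPM, each paralogue was lower than the standard gene it resembles, or absent. Per kilobase of transcript, however, Rpl22l1 was at 250 and Rpl22 at 100 CPM per kb. Rpl22l1, the partner copy of Rpl22, was at 137, 135 and 130 CPM without and 143, 148 and 136 CPM with ibuprofen. Rps27l, a p53-responsive relative of Rps27, was at 40.2, 39.5 and 38.1 CPM against 42.4, 45.8 and 38.3 CPM. These 2 had positive fold changes of 0.09 ± 0.09 and 0.10 ± 0.12, with overlapping groups, while Rps27 itself was at 319, 264 and 252 CPM against 253, 270 and 260 CPM. Both turned negative after the GC correction, at -0.09 and -0.02. Rpl7l1 was at 52.7, 50.6 and 43.9 CPM against 42.9, 48.4 and 53.1 CPM. Rpl10l, known from the testis, was at 0 CPM in all 6 libraries, and Rpl39l, also a testis paralogue, was above 0 in 1 library only, at 0.15 CPM. Rpl3l, the muscle paralogue of Rpl3, was at 0.2, 0 and 0.15 CPM against 0.5, 0.4 and 0.799 CPM. Its groups did not overlap, and only the ibuprofen values were above their libraries' level of 3 reads.

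The 5 processed pseudogenes with gene-like names were all low. Rps3a2 was at 3.00 to 3.80 CPM without and 3.80 to 4.45 CPM with ibuprofen, and Rps3a3 at 2.00 to 3.65 CPM against 1.60 to 2.35 CPM. Rps4l, Rps12l1 and Rpl6l stayed between 2.95 and 6.30 CPM in every library. Their groups overlapped or touched, and none passed the test. Rps3a2, Rps3a3, Rps12l1 and Rpl6l are near-identical to the far more abundant Rps3a1, Rps12 and Rpl6, so their own levels are uncertain.

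Near-identical copies mattered most for Rpl26 and Rpsa, a point looked into after their values were seen. By BLAST against the GENCODE M21 transcripts (GRCm38), 567 copies, 4 of them members, matched one of the standard genes at 95% identity or more over at least 150 bases and 80% of the shorter sequence, and 73 of the 77 genes had at least 1. The annotation calls 563 of them pseudogenes and 4 protein-coding, and these 4 have pseudogene symbols. Of these copies, 539 were above 0 CPM in some library and 49 reached 10 CPM. Together they came to 4.33% to 4.87% of the CPM of the standard genes in each library. In 8 of the 49 the highest library was at least 3 times the lowest, and 6 of these, copies of Rpl26, Rpsa, Rpl11 and Rps19, are described here. The sources used here do not say how reads that fit a gene and its copy were assigned.

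The sequences below show how little separates these genes from their copies. Each is a stretch of 41 bases of the sense strand, from the GENCODE M21 transcripts on GRCm38. The bases that differ are in capitals, with 20 bases on either side of one of them. The gene's stretch lies inside its coding sequence, and the copy's is the matching stretch of its own transcript. Positions are counted from 1 at the 5′ end of the gene's transcript, gene's base first. Gm15772 (chr5:3236431-3236868, plus strand) differs from the transcript of Rpl26 at 2 of 438 aligned bases, C224T and T335C, and both are shown.
Rpl26 around C224T: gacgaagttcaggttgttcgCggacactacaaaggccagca
Gm15772 around C224T: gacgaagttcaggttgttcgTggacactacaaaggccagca
Rpl26 around T335C: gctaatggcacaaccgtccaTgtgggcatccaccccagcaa
Gm15772 around T335C: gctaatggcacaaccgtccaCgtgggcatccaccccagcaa
Rpsa-ps10 (chr3:150072658-150073542, minus strand) differs from Rpsa at 6 of 885 aligned bases, and the stretches around T385C and C520G are shown. The first also holds C394T.
Rpsa around T385C: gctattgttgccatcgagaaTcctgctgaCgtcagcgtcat
Rpsa-ps10 around T385C: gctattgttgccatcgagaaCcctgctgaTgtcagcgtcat
Rpsa around C520G: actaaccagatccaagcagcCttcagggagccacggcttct
Rpsa-ps10 around C520G: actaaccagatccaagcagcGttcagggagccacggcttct
Rps19-ps6 (chr12:110898114-110898551, plus strand) differs from Rps19 at 5 of 438 aligned bases, of which T429C is shown.
Rps19 around T429C: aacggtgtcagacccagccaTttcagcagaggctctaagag
Rps19-ps6 around T429C: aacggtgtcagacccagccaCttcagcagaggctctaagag

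Gm15772 ran opposite to Rpl26 in the same libraries. It was at 152, 154 and 156 CPM without and 8.35, 11.6 and 145 CPM with ibuprofen. The ibuprofen libraries in which the copy was low, replicates 1 and 2, were those in which Rpl26 was high. The log2 fold change of Gm15772, -2.59 ± 0.76, was the lowest of all 16684 tested genes, and its adjusted p from limma was 0.136. The copy took 35.3%, 37.0% and 36.4% of the sum of the 2 rows in the untreated libraries and 1.84%, 2.42% and 34.4% in the ibuprofen libraries. The sum of Rpl26 and Gm15772 was 430, 416 and 429 CPM without and 454, 479 and 422 CPM with ibuprofen, so its groups overlapped, with means of 425 ± 7.91 and 452 ± 28.7 CPM (SD, n = 3). With all near-identical copies added to their genes, the log2 fold change of Rpl26 was 0.08 ± 0.10 with an adjusted p of 0.686 from limma.

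Rpsa-ps10 divided the ibuprofen libraries in the same way, in the other direction. It was at 19.3, 12.1 and 15.0 CPM without and 135, 135 and 16.7 CPM with ibuprofen. Replicates 1 and 2 were high, and replicate 3 lay within the untreated range. It took 1.70%, 1.46% and 2.04% of the sum with Rpsa in the untreated libraries and 21.7%, 21.0% and 2.38% in the ibuprofen libraries. The sum of Rpsa and Rpsa-ps10 was 1138, 831 and 736 CPM without and 621, 643 and 700 CPM with ibuprofen, with means of 902 ± 210 and 655 ± 40.6 CPM (SD, n = 3). The groups of the sum did not overlap, though untreated replicate 3 and ibuprofen replicate 3 were close. With all copies added, the log2 fold change of Rpsa was -0.43 ± 0.15 with an adjusted p of 0.178 from limma, and -0.25 also without untreated replicate 1, against -0.66 with Rpsa alone.

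The other variable copies were lower. Gm10036, a copy of Rpl11, was at 2.05, 0.949 and 1.55 CPM without and 1.85, 24.8 and 25.6 CPM with ibuprofen, high in ibuprofen replicates 2 and 3. With all its copies added, Rpl11 came to 373, 279 and 258 CPM without and 247, 263 and 264 CPM with ibuprofen, so its groups then overlapped. The log2 fold change was -0.21 ± 0.13 with an adjusted p of 0.41 (unadjusted p of 0.134) from limma, and -0.06 also without untreated replicate 1. Rps19-ps6 was at 23.9, 19.3 and 18.9 CPM against 18.4, 5.2 and 4.25 CPM, low in the same 2 libraries in which Gm10036 was high. Rps19-ps1 was at 19.7 CPM in untreated replicate 1 and 4.05 to 5.50 CPM in the other 5 libraries, with nearly the same values for Rps19-ps2. None of these 6 copies passed the test, and why they differ between libraries of one group was not tested.

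**Figure D3:**
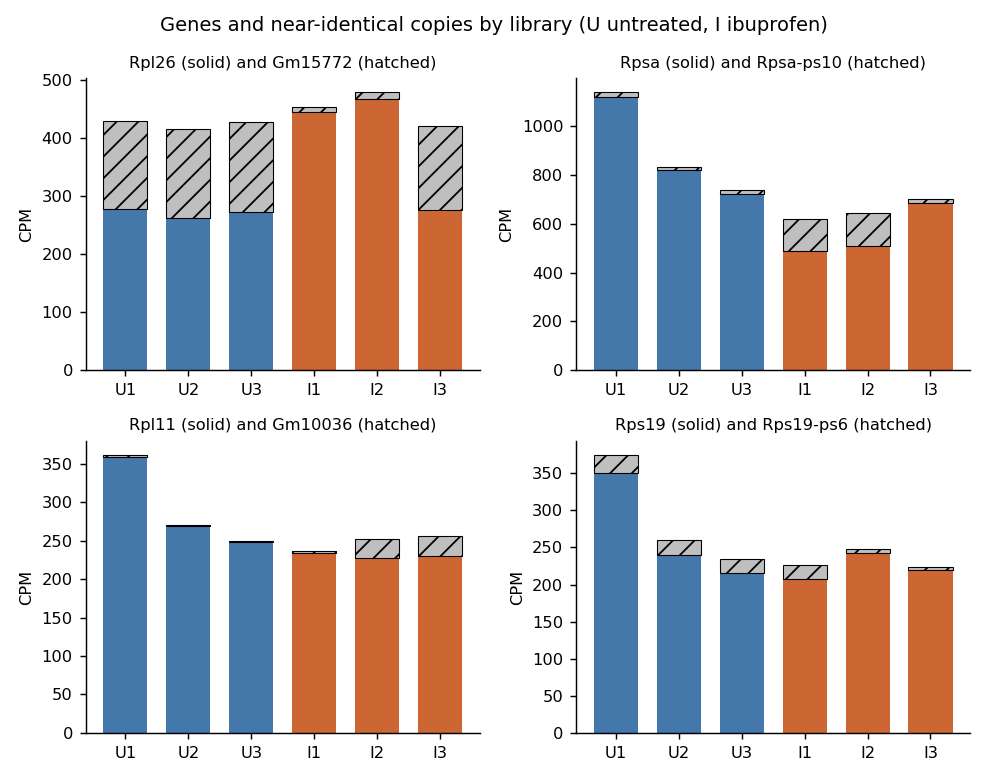
Bars give CPM in the 3 untreated (U1 to U3, blue) and 3 ibuprofen (I1 to I3, orange) libraries for Rpl26, Rpsa, Rpl11 and Rps19, with the CPM of 1 near-identical copy stacked on top (hatched); there are no error bars, since each bar is 1 library. The Rpl26 and Gm15772 sum stays between 416 and 479 CPM while the copy goes from 156 to 8.35 CPM, and Rpsa-ps10 adds 135 CPM in ibuprofen replicates 1 and 2 alone.

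Other genes of translation were read beside the ribosomal proteins, and 0 members of any of these lists passed the limma test, against 0.521% of all genes. The 4 other ribosomal proteins, whose symbols the rule does not cover, had a median log2 fold change of -0.06. Among them Rack1, a scaffold on the small subunit, was at 1219, 924 and 830 CPM without and 771, 859 and 843 CPM with ibuprofen. Fau, a ubiquitin-like fusion of a small subunit protein, was at 312, 230 and 230 CPM against 231, 246 and 247 CPM. Both were highest in untreated replicate 1, as most ribosomal protein genes were, and both overlapped between groups.

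Of 7 elongation factors, 6 were negative, and the median was -0.09. Eef1a1, which brings tRNAs to the ribosome, was at 4640, 4699 and 5102 CPM without and 4837, 5104 and 4939 CPM with ibuprofen. Eef2, which moves the ribosome along, was at 2835, 2567 and 2437 CPM against 2240, 2310 and 2549 CPM. The 14 other TOP mRNAs measured, from genes whose transcripts start like those of the ribosomal proteins, were split, 7 negative and 7 positive, with a median of -0.00. In untreated replicate 1 their median deviation was -0.08, where that of the ribosomal proteins was 0.31. That of the elongation factors, kept as a list of their own, was 0.13. Median GC content was 46.6% for the 14 other TOP mRNAs and 51.8% for the standard ribosomal protein genes. The part of GC content in this contrast was not tested. The lowest of these 14 were the snoRNA hosts Snhg1 (log2 fold change -0.43, adjusted p 0.127 from limma) and Gas5 (-0.35, adjusted p 0.139 from limma). The ibuprofen libraries lay below the untreated ones for these 2 of the 14, against 8.73% of all tested genes.

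The 24 initiation factors had a median of -0.06, with 16 negative, and the 20 tested genes of the TOR pathway a median of -0.02, with 11 negative. At an unadjusted p under 0.05 there were 5 lower initiation factors of the 24, among them Eif4a2, Eif3b and Eif3g, against 6.17% of all tested genes. Eif4a2, an RNA helicase of cap-dependent initiation, was at 393, 367 and 385 CPM without and 300, 323 and 271 CPM with ibuprofen, without overlap. Its adjusted p from limma was 0.128. The ibuprofen libraries lay below the untreated ones for 6 of the 24 initiation factors, against 8.73% of all tested genes.

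All 6 dedicated chaperones, proteins that escort single ribosomal proteins to the nucleolus or into the pre-ribosome, had negative fold changes. Their median was -0.31, and -0.26 with 5 negative without untreated replicate 1. Grwd1, the counterpart of the Rpl3 chaperone of yeast, was at 22.6, 18.0 and 19.3 CPM without and 11.5, 12.6 and 15.5 CPM with ibuprofen. Tsr2, the chaperone of Rps26, was at 16.7, 14.3 and 14.3 CPM against 10.04, 10.14 and 13.6 CPM. Aamp, the counterpart of the Rpl10 chaperone of yeast, was at 119, 89.7 and 81.8 CPM against 71.8, 69.6 and 77.5 CPM. The groups did not overlap for these 3 and for Ltv1, 4 of the 6, against 8.73% of all tested genes, and none passed the test (adjusted p of 0.13, 0.24 and 0.191 from limma). The genes of their client proteins, Rpl3, Rps26 and Rpl10, had log2 fold changes of -0.07, 0.09 and -0.00.

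The ribosomal proteins of the mitochondrion, which serve another ribosome made of other genes, gave a different picture across libraries, set side by side here without a test of the difference. All 78 were tested, 63 had negative fold changes, and the median was -0.19. Their median deviation was 0.14, 0.15 and -0.01 in untreated replicates 1, 2 and 3 and -0.04, -0.08 and -0.14 in the ibuprofen libraries. Untreated replicates 1 and 2 thus both stood above the rest. Without untreated replicate 1 their median was -0.16, where that of the cytosolic members was -0.04. The ibuprofen libraries lay below the untreated ones for 22 of the 78, against 8.73% of all tested genes, and 14 were lower at an unadjusted p under 0.05, against 6.17%. The smallest adjusted p was 0.155, for Mrpl12, at 38.8, 40.5 and 35.5 CPM without and 29.4, 28.8 and 30.1 CPM with ibuprofen.

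**Figure D4:**
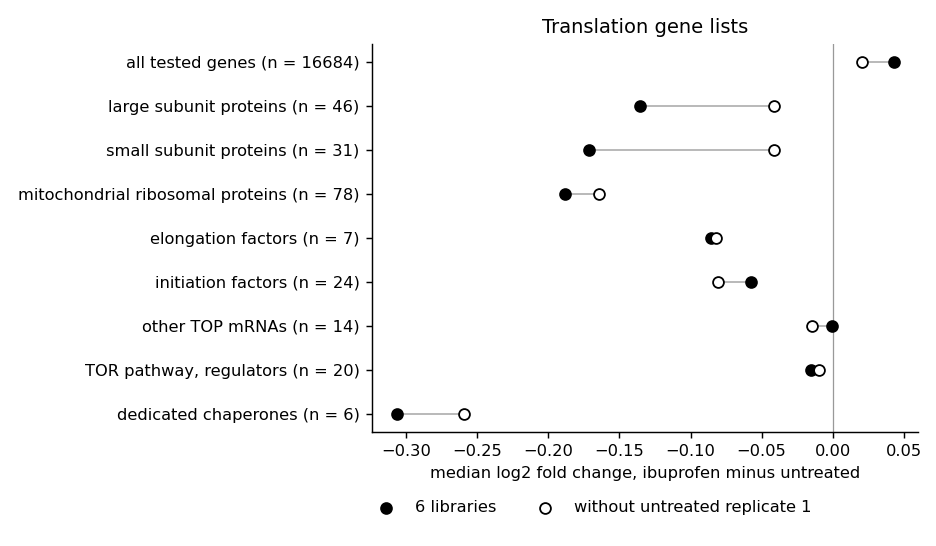
Median log2 fold change (ibuprofen minus untreated, on log2(CPM + 1)) of each gene list, with the number of tested genes in brackets, for all 6 libraries (filled) and without untreated replicate 1 (open). The medians of the large and small subunit proteins, -0.14 and -0.17, both move to -0.04, while that of the mitochondrial ribosomal proteins goes from -0.19 to -0.16.

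Reads of a member may also be shared with a gene on the same stretch. Of the 88 members, 51 overlap another annotated gene, 30 a small nucleolar RNA on the same strand and 25 a gene on the opposite strand. The sources used here do not say whether counting used the strand, so the levels of those 25 may include reads of their partners. Of the members lower or higher at an unadjusted p under 0.05, Rpsa overlaps small nucleolar RNAs and Rps21 a microRNA gene, and Rpl26 and Rpl11 overlap none. Rpl18 overlaps the coding gene Sphk2 on the opposite strand.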

How the data were processed

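The deposited values are CPM per gene, as the file headers name them, in 6 libraries. Per the submitters' processing notes, the tools were Cell Ranger 3.1.0, edgeR, HTSeq and STAR 2.5.3a, without stated roles, and the build GRCm38. The sources used here do not give the annotation release, strand setting or handling of multiply mapped reads. The 6 columns had equal sums. Reads per library were estimated from the steps of the low values and used only for depth and the level of 3 reads, which cover counting error only.

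Genes with at least 1 CPM in at least 3 libraries were tested with limma 3.58.1 in R 4.3.3 on log2(CPM + 1), using trended but not robust shrinkage and no block. Calls needed an adjusted p (Benjamini-Hochberg, over all tested genes) under 0.05. Fold changes are on the log2(CPM + 1) scale, which understates those of low genes. The procedure was tested on simulated data. Lengths, GC content and positions came from GENCODE M21, in which all 88 members and 16646 of the tested rows were found. Lengths are medians over the best-ranked transcripts of a gene. Copies were found with BLAST 2.17.0.

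The members, the lists and the tests were chosen with earlier results of these data known, so list counts are descriptions. Members are named by fixed role, by the highest and lowest fold changes, and by the highest and lowest levels per length. Alternatives covered pseudocount, filter, scaling, library weights, shrinkage, a replicate block and each library left out. GC, length and copy corrections were added after seeing the data. The values of 1 member and its copies are not reported here.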

Additional observations from a re-analysis of the deposited data

How the results depend on the processing

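There were 22 settings, including a share of coding rows that applied to the summed share alone. Under the others, the 33 named genes gave 690 fold changes besides the reported ones. Of these, 659 kept direction and call and 26, in 9 genes, changed sign. The count of called ribosomal protein genes was 0 except under limma's library weights, with 3 (Rpl26 higher, Rpsa and Rps21 lower), and 0 to 1 when each library was left out in turn: Rpsa without untreated replicate 3 and Rpl26 without ibuprofen replicate 3. The cause was not tested. In the other lists the count was 23 with library weights, 1 with the replicate block and GC correction together, and 0 to 1 with a library left out. Except without untreated replicate 1, the share of all tested genes called under these settings is not given here. These counts therefore cannot be read as particular to the ribosomal proteins or to the other lists. The median log2 fold change of the ribosomal proteins ran from -0.22 without untreated replicate 3 to -0.04 without untreated replicate 1. The difference in their share ran from -0.482 to -0.0881 percentage points, against -0.327 with all libraries.

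Sign changes were all of small values. They were 0.0186 for Rpl10 and -0.0337 for Rps12l1 after quantile normalization, and 0.0502 for Rpl13a and 0.00457 for Rps27a with library weights. Rpl22l1 went to -0.0876 and Rps27l to -0.0248 after GC correction, with and without the replicate block, and to -0.103 and -0.0407 after GC and length correction. With copies added and without untreated replicate 1, Rpl13a was 0.0491, Rpl39 0.00153, Rpl7l1 0.0241, Rps12l1 -0.000493, Rps27 0.0167 and Rps27a 0.00939. With each library left out, Rpl10 ran from -0.0198 to 0.0169, Rpl13a from -0.0955 to 0.0508, Rpl39 from -0.208 to 0.00778, Rpl7l1 from -0.104 to 0.0506, Rps12l1 from -0.00361 to 0.358, Rps27 from -0.153 to 0.0163 and Rps27a from -0.0761 to 0.0127.

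Libraries of the same replicate number deviated together with correlations of 0.0002, 0.08 and 0.15, and those of unlike number with correlations of -0.14 to 0.10. So few libraries cannot decide whether the replicate numbers pair them. With the replicate block 0 ribosomal protein genes were called and the median stayed at -0.15. Limits are the 3 libraries per group, 1 of them apart from the rest, the unknown handling of reads that fit a gene and its copies, and depth, at which the lowest paralogues could not be told from 0.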
